A study of Homo sapiens with 30 samples.

Results

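The zinc finger genes outside chromosome 19 were followed through H3K4me3 and H3K27ac ChIP-seq of OCI-Ly1, a human cell line from a diffuse large B-cell lymphoma. They were taken from the RefSeq genes of GRCh38.p14 as those on autosomes other than chromosome 19 whose symbol is ZNF followed by digits alone, which gave 227 of 59679 genes, and all of their peaks within 1 kb of either gene end were used. The cells of every group were the same line, grown alike, and received either 0.01% DMSO, the vehicle, or JIB-04, an inhibitor of the Jumonji family of histone demethylases, at 150 nM or 500 nM. Each mark had 2 libraries per group, so 12 of the 30 libraries of the series were used; the length of treatment is not given in the sources used here, and all results come from 1 cell line. The labels do not say that the 2 libraries of a group came from separate cultures, so the p-values measure the spread between these libraries, which may be technical.

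Most zinc finger proteins of this kind bind DNA through arrays of C2H2 fingers, and many carry a KRAB domain that recruits TRIM28, which in turn brings SETDB1, an H3K9 methyltransferase, and HP1 proteins to transposons and to the zinc finger gene clusters themselves. H3K4me3 marks the starts of active or poised genes and is removed by demethylases of the KDM5 family, and H3K27ac marks active promoters and enhancers. The genes named ZNF also include proteins with other jobs, such as the ribosome-collision sensor ZNF598 and the imprinting regulator ZNF445.

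The promoters of the members that the H3K4me3 results turn on are shown first, as RefSeq windows of GRCh38.p14 from 250 bases before to 50 bases after the annotated start, 5′ to 3′ on the gene's strand. Capitals mark matches, on either strand, to the letters of 7 promoter motifs: GGGCGG (SP/KLF), CCGGAAG (ETS), the NRF1 palindrome (capitals in the ZNF800 window), AAGATGGCG (YY1), TGACGTCA (CRE), CACGTG (E-box) and CCAAT (NFY). ZNF853, ZNF365 and ZNF438 had 3 of the 4 largest rises of H3K4me3 at 500 nM, ZNF589 and ZNF483 had the largest falls after ZNF395, ZNF800 and ZNF655 had the highest H3K4me3 per kb in DMSO, and ZNF268 belongs to the chromosome 12 run described further on. The windows lie at chr7:6615360-6615659 (plus strand), chr10:62374119-62374418 (plus strand), chr10:31031816-31032115 (minus strand), chr3:48240854-48241153 (plus strand), chr9:111524929-111525228 (plus strand), chr7:127392659-127392958 (minus strand), chr7:99558392-99558691 (plus strand) and chr12:133181245-133181544 (plus strand).
ZNF853: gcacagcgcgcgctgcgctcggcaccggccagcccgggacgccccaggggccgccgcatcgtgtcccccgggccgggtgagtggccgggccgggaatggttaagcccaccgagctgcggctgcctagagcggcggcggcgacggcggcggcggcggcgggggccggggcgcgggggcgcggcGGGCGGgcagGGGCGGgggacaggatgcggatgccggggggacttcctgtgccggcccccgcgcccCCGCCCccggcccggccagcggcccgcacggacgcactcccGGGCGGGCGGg
ZNF365: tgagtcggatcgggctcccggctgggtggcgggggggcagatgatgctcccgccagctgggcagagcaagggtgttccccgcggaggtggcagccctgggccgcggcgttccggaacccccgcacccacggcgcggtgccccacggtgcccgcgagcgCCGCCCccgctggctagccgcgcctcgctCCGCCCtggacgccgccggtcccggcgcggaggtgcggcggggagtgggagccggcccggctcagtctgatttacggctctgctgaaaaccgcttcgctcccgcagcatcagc
ZNF438: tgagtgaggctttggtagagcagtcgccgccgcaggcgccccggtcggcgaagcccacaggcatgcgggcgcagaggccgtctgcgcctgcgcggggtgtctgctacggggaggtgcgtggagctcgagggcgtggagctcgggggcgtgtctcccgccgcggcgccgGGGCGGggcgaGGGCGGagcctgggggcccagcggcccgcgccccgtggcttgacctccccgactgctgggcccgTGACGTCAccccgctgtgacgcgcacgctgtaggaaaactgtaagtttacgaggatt
ZNF589: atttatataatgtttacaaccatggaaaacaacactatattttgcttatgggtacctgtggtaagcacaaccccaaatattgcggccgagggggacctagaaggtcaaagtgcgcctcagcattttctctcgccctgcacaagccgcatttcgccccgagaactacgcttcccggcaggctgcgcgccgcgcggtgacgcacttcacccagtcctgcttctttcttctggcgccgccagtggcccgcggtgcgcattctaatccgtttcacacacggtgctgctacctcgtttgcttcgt
ZNF483: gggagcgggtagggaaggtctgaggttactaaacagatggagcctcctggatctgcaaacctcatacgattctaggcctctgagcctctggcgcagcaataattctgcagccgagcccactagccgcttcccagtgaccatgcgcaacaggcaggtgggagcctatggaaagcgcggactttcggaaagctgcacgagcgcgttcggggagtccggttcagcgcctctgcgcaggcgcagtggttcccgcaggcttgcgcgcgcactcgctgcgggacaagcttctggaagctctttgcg
ZNF800: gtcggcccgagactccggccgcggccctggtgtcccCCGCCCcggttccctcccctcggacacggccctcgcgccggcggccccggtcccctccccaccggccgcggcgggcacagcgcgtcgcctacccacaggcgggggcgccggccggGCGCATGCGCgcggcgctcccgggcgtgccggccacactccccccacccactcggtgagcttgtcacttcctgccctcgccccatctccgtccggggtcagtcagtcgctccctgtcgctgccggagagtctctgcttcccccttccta
ZNF655: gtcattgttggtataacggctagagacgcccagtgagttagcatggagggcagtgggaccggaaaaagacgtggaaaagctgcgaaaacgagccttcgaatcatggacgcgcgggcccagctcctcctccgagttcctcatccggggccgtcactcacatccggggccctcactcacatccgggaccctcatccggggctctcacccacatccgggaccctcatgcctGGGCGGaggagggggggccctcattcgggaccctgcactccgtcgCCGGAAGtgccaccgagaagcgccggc
ZNF268: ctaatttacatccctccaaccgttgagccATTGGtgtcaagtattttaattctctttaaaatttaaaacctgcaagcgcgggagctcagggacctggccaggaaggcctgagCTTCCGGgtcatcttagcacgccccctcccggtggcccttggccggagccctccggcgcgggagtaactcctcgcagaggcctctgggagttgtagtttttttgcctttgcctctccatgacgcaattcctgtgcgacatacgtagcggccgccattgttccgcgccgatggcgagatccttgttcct
The ZNF853 window held 50 CpG dinucleotides and 5 GGGCGG matches, and the ZNF365 and ZNF438 windows held 39 CpGs and 2 such matches each. The windows of the falling genes ZNF589 and ZNF483 held 24 CpGs each and no match to any of the 7 motifs. Among the windows shown, the ETS letters stood in those of ZNF655 and ZNF268, and the single NRF1 match was in that of ZNF800. Windows not shown went the other way. That of ZNF629, another of the largest rises, held 18 CpGs and no match to any of the 7 motifs. That of ZNF70, a called fall, held 42 CpGs and both the SP/KLF and the ETS letters.

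A promoter window was listed for 188 members, and 156 of them lay under a deposited H3K4me3 peak. Where a gene had several windows, 1 was kept, and a window under an H3K4me3 peak was preferred to the first listed. For members, a window under the gene's strongest H3K4me3 peak at an end came first. Lying under a peak was thus partly a result of that choice. Members without a peak over the window had fewer CpGs, with a median of 14.5 over 32 windows against 25 over the 156. The ETS letters were in 66 of the 156 windows (42.3%), beside 19.6% of the 11956 windows of other autosomal genes under an H3K4me3 peak and 10.8% of all 26246 windows. The SP/KLF letters were in 64.1% of the members' windows, fewer than the 72.4% of the other genes under a peak and more than the 45.3% of all windows. CCAAT was in 44.9% of the members' windows, 35.3% of the other genes' and 35.4% of all, while NRF1, YY1, CRE and E-box letters were in 3.85%, 2.56%, 5.13% and 7.05% of the members' windows under a peak, in 2.58%, 3.89%, 3.39% and 10.3% of the other genes' under a peak and in 1.38%, 1.88%, 2.00% and 7.36% of all windows. These shares describe letters in a window and are not evidence of binding, and the differences between the sets were not tested.

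The libraries held 9686420 to 12327122 reads counted in H3K4me3 peaks and 4360660 to 5410292 in H3K27ac peaks, so single H3K27ac peaks were measured with larger error. The 150 nM H3K4me3 libraries differed by less than the sampling noise (chi-square per degree of freedom 0.92), and so did replicate 1 of DMSO and replicate 1 at 150 nM (0.948); as the latter carry different labels, both 150 nM libraries were kept as samples. In H3K27ac, replicate 2 of DMSO and replicate 2 at 150 nM held 363 and 246 counts on 5 unplaced contigs where the other 4 libraries held 1674 to 2173. The B-cell genes MS4A1, CD79A, CD79B, PAX5 and BCL6 had both marks, at 25.8 to 47.4 CPM per kb of H3K4me3 in DMSO, whereas the myeloid and erythroid genes MPO, LYZ and GATA1 had neither. Of the T-cell genes, CD3D had H3K4me3 of 5.73 CPM per kb, and CD2 had H3K27ac of 23.1 CPM per kb without H3K4me3; of 2 epithelial and liver genes, EPCAM had both marks and ALB neither. CPM here means counts scaled to 1000000 reads in peaks, with TMM factors.

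In the deposited peak sets, 180 of the 227 members (79.3%) had an H3K4me3 peak at a gene end, compared with 61.2% of the 17448 other protein-coding genes on the same autosomes. For H3K27ac the shares were 75.8% and 55.4%. Both marks were present at 170 members, H3K4me3 alone at 10, H3K27ac alone at 2 and neither at 45, of which 29 had no peak of either mark even within the gene. ZNF462, a nuclear protein needed in development, had neither mark at an end, and ZNF423, a regulator of neural and fat precursors, had a single H3K4me3 peak there, the one member peak of that mark too weak to be tested. The members had 184 H3K4me3 peaks, of which 183 passed the filter on low counts, and 208 H3K27ac peaks, of which 203 passed. In each mark 3 peaks served 2 members at once, and 83 of the 183 tested H3K4me3 peaks and 96 of the 203 tested H3K27ac peaks also lay within 1 kb of another gene, so that a change there cannot be assigned to the zinc finger gene alone.

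The members with peaks were well marked before treatment. The median H3K4me3 level in DMSO over the 183 peaks was 37.9 CPM per kb, and 71 of them lay in the highest 3 and 22 in the lowest 3 of 10 equal bins by abundance of other gene-end peaks. Per kb of peak, ZNF800 stood highest in H3K4me3 at 76.5 ± 2.58 CPM per kb (SD, n = 2), followed by ZNF655 at 75.1 ± 2.77 and the divergent pair ZNF425 and ZNF398, which share 1 peak, at 69.3 ± 3.02; ZNF800 and ZNF655 differed by less than their spread. ZNF862 (67.1 ± 1.70 CPM per kb) and ZNF623 (62.8 ± 3.31 CPM per kb) came next. The lowest was ZNF853 at 1.06 ± 0.08 CPM per kb. In H3K27ac the peak of ZNF425 and ZNF398 led at 38.7 ± 1.05 CPM per kb, above ZNF786 at 37.3 ± 2.09, ZNF655 at 36.0 ± 0.99, ZNF800 at 34.8 ± 1.39 and ZNF680 at 31.0 ± 4.96, neighbours that mostly overlapped within their spread. The widest member domain was the H3K27ac peak over the start of ZNF608, 22103 bp long with a mean of 431 CPM in DMSO. None of these 5 highest H3K4me3 peaks was called changed at 500 nM.

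At 500 nM against DMSO, H3K4me3 at the members moved at a minority of peaks. There were a few large rises, mostly at weakly marked peaks, and many small falls, mostly at peaks of middle or high level. In the edgeR quasi-likelihood test over all 20402 tested peaks, 52 of the 183 member peaks passed an adjusted p of 0.05, 18 higher and 34 lower (9.84% and 18.6%), where 39.4% of all tested peaks passed (20.7% higher and 18.7% lower) and 39.9% of the gene-end peaks (19.6% higher and 20.3% lower). Other gene-end peaks of the same abundance bin, weighted to the members' bins, passed in 37.5% of cases, 13.6% higher and 23.9% lower. The members' median log2 fold change was -0.04, beside -0.01 over all tested peaks and -0.02 over gene-end peaks, and minus the median of matched peaks it was -0.011. By library, that matched deviation was 0.0026 and 0.0083 in the DMSO libraries, -0.0022 and 0.0004 in those at 150 nM and -0.0126 and 0.0041 in those at 500 nM, so the groups overlapped. Both 500 nM libraries stood above both DMSO libraries at 33 member peaks (18.0%) and below them at 83 (45.4%), beside 30% and 38.2% of gene-end peaks and 33.7% and 34.3% of all tested peaks. Whether the members' share differs from that of matched peaks was not tested.

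**Figure D1:**
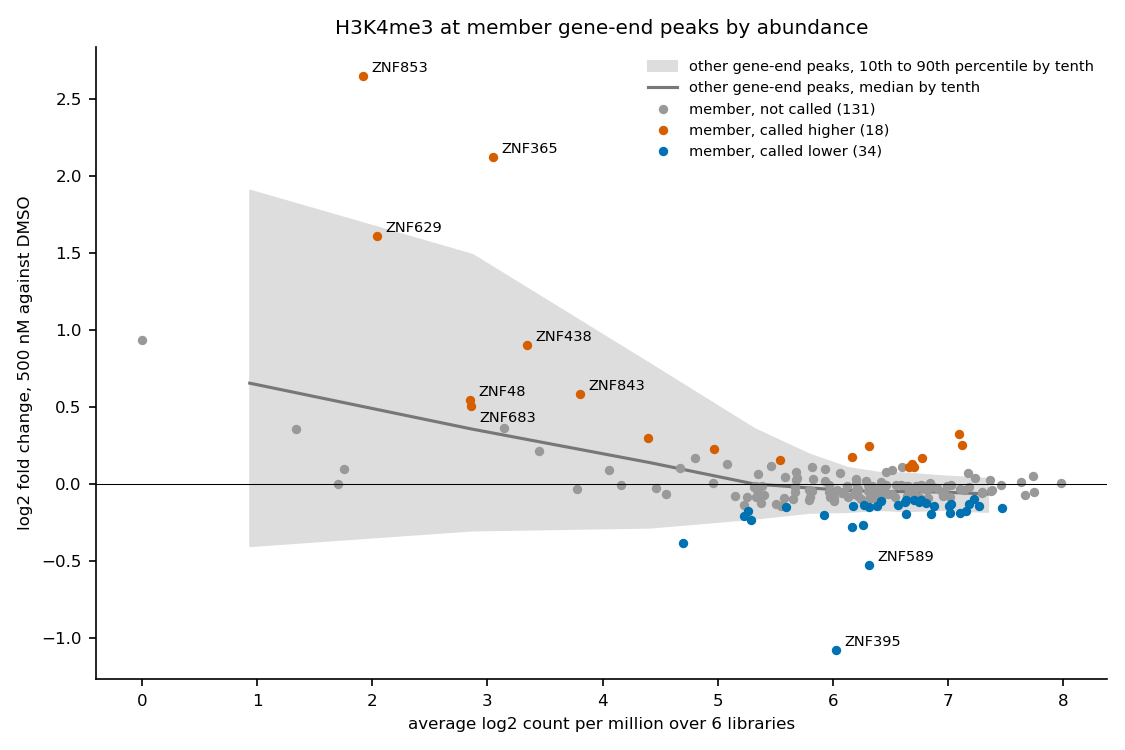
Log2 fold change of H3K4me3 at 500 nM against DMSO (vertical axis) for the 183 tested member peaks, against their average log2 CPM over the 6 libraries (horizontal axis), with the median and the 10th to 90th percentile of other gene-end peaks in 10 bins of abundance. Members called higher reach 2.65 at the low end, while the 34 called lower lie at higher abundance, most of them within 0.25 of 0.

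The direction went with the level of the peak, for members as for other genes. In the lowest 3 of the 10 bins 8 of 22 member peaks rose and 1 fell, against 42.6% and 7.76% of other gene-end peaks there. In the middle 4 bins 4 of 90 rose and 14 fell (4.44% and 15.6%), against 13.8% and 20.0% of the others. In the highest 3 bins 6 of 71 rose and 19 fell (8.45% and 26.8%), against 4.67% and 33.4%. Of the 34 falls, 29 were smaller than 0.25 on the log2 scale, whereas 7 of the 18 rises were at least 0.5. Both 500 nM libraries lay below both DMSO libraries at all 34 falls and above them at 17 of the 18 rises, the exception being a far-end peak of ZNF48.

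The balance of rises and falls depended on how the libraries were scaled. With RLE size factors 18 members were called higher and 31 lower, beside 20.8% and 18.2% of all tested peaks. With scaling by the total count in peaks the numbers were 25 and 20, and all tested peaks moved the same way, to 23.4% higher and 13.7% lower. With loess offsets on abundance they were 23 and 15, beside 17.2% and 16.9% of all tested peaks. DESeq2's Wald test called 8 higher and 11 lower, with 17.1% of all tested peaks called. Of the calls with TMM scaling, 14 of the 18 rises and 14 of the 34 falls were also called in the same direction with all 3 other scalings, among them all 12 falls named here and 9 of the 12 rises; ZNF683, ZNF273 and ZNF488 were lost with loess offsets. Leaving out replicate 2 of DMSO lowered the count of members called from 52 to 34. Scaling by the total count in peaks raised the median log2 fold change of all tested peaks by 0.034, the largest shift among these scalings.

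**Figure D2:**
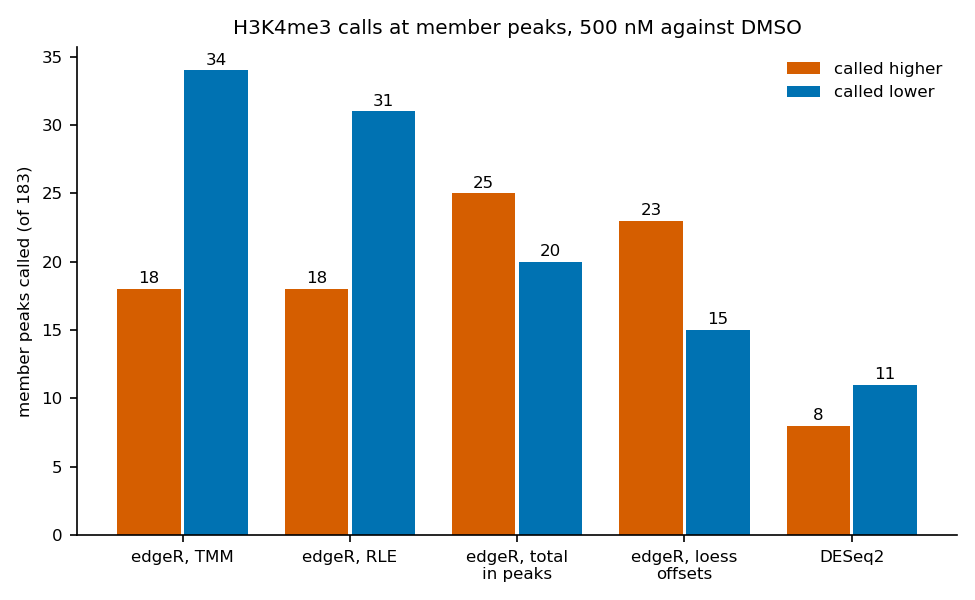
Number of the 183 member H3K4me3 peaks called higher and lower at 500 nM against DMSO (vertical axis) under 4 scalings in edgeR and with DESeq2 (horizontal axis). Falls outnumber rises with TMM and RLE scaling (34 to 18 and 31 to 18), and rises outnumber falls with the total count in peaks and with loess offsets (25 to 20 and 23 to 15).

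The largest rise was at the start of ZNF853 (chr7:6615091-6616265), a little studied gene whose GC-rich promoter is printed above. Its H3K4me3 was 1.31 and 1.18 CPM in the DMSO libraries, 1.88 and 1.68 in those at 150 nM and 7.99 and 7.76 in those at 500 nM. All 500 nM libraries stood far above the others, and the 150 nM libraries stood slightly above DMSO without a call. The log2 fold change was 2.65 ± 0.26 (SE) against DMSO, with an adjusted p of 4.25e-13 from edgeR, and it exceeded the 90th percentile of other gene-end peaks of its abundance. The raw counts behind it were small, 16 and 12 reads in DMSO and 94 and 76 at 500 nM.

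ZNF365, a coiled-coil protein linked to genome stability, showed the same pattern at its start (chr10:62373927-62374874). Its H3K4me3 was 3.67 and 3.73 CPM in the DMSO libraries, 5.2 and 4.28 in those at 150 nM and 16.2 and 15.9 in those at 500 nM, so the 500 nM libraries did not overlap with the rest. The log2 fold change was 2.12 ± 0.16 (SE), adjusted p 1.61e-16 (edgeR). The peak also lies within 1 kb of the noncoding gene LOC283045.

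ZNF629 (chr16:30786494-30787536) had H3K4me3 of 2.53 and 2.06 CPM in the DMSO libraries, 2.42 and 2.51 in those at 150 nM and 7.57 and 6.54 in those at 500 nM, a log2 fold change of 1.61 ± 0.23 (SE) against DMSO. ZNF438 (chr10:31031333-31032760) had 6.45 and 9.43 CPM in the DMSO libraries, 7.97 and 7.54 in those at 150 nM and 13.7 and 15.6 in those at 500 nM, a log2 fold change of 0.90 ± 0.15 (SE). Both were called in edgeR (adjusted p 4.14e-08 and 1.07e-06), and in both the DMSO and 150 nM libraries overlapped while both 500 nM libraries stood above them. ZNF853 and ZNF629 fell below a mean count of 50 and could not be tested under that filter.

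Of these 4 genes, ZNF365, ZNF629 and ZNF438 had no H3K27ac peak at either end in the deposited set, and that of ZNF853 was at the far end of the gene. That ZNF853 peak had 3.91 and 2.81 CPM in the DMSO libraries, 4.46 and 2.83 in those at 150 nM and 3.96 and 3.52 in those at 500 nM of H3K27ac and was not called. ZNF843 (H3K4me3 log2 fold change 0.58) and ZNF683 (0.51) had no H3K27ac peak at an end either. ZNF683, also known as Hobit, is a regulator of tissue-resident lymphocytes, and its peak lies just past the end of the gene rather than at its start. At that peak H3K4me3 was 7.35 and 4.71 CPM in the DMSO libraries, 6.9 and 5.77 in those at 150 nM and 8.16 and 9.4 in those at 500 nM. Its call was lost with loess offsets, with DESeq2 and without replicate 2 of DMSO or of 500 nM (adjusted p 0.193, 0.203, 0.35 and 0.127).

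ZNF598, the ubiquitin ligase that senses collided ribosomes, was the strongest rise at a highly marked promoter (chr16:2007035-2010923). Its H3K4me3 was 124 and 126 CPM in the DMSO libraries, 131 and 129 in those at 150 nM and 158 and 155 in those at 500 nM, with the 500 nM libraries above all others and a log2 fold change of 0.32 ± 0.04 (SE) (adjusted p 6.20e-11, edgeR). Smaller rises on the log2 scale were called at ZNF273 (0.30), ZNF276 (0.25), ZNF783 (0.24), ZNF488 (0.22) and ZNF777 (0.17). ZNF276 shares its peak with VPS9D1. The calls of ZNF273, ZNF488 and ZNF777 were lost with DESeq2 and when 1 library was left out: replicate 2 of DMSO or replicate 1 of 500 nM for ZNF273, replicate 2 of DMSO for ZNF777, and replicate 1 of DMSO or replicate 2 of 500 nM for ZNF488.

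**Figure D3:**
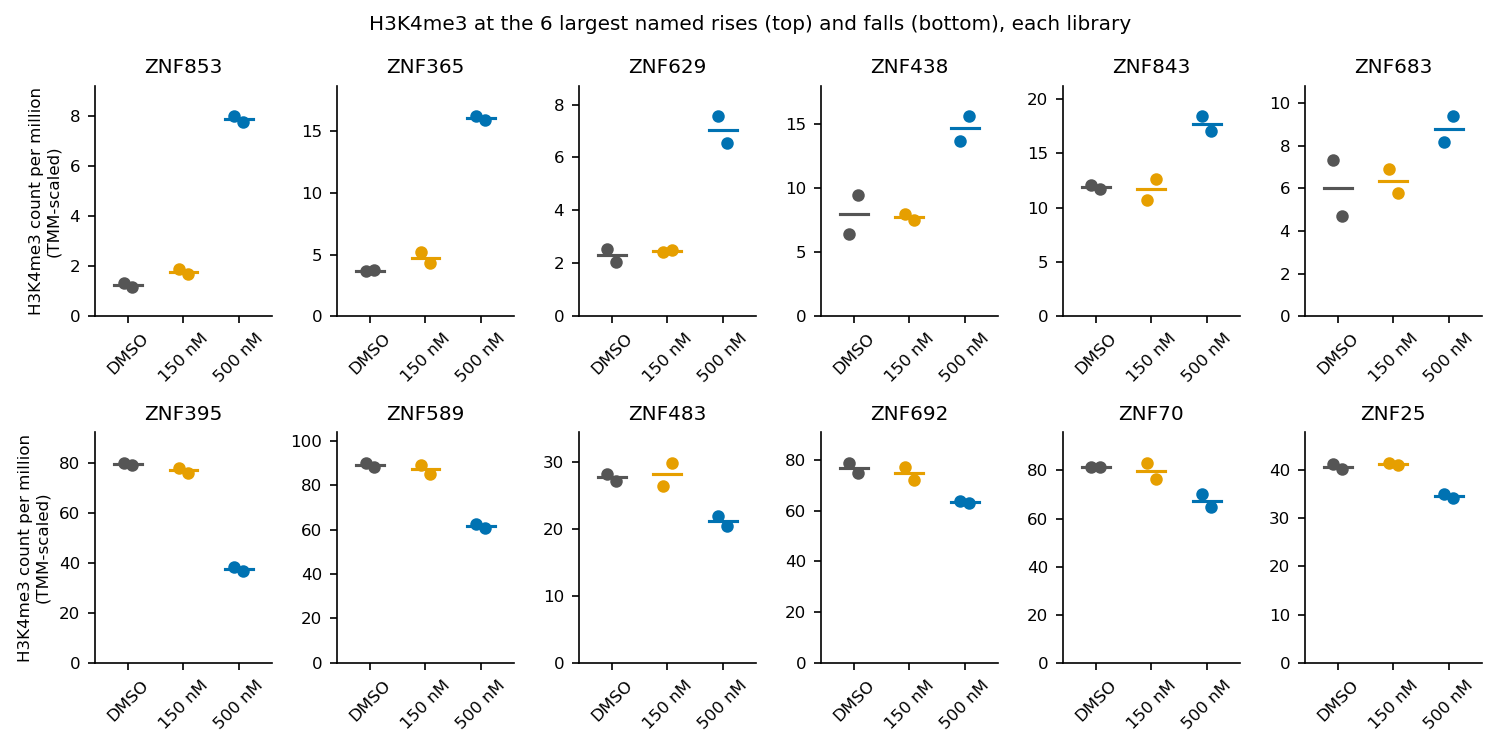
H3K4me3 in CPM (vertical axes, each from 0) in every library of the DMSO, 150 nM and 500 nM groups for the 6 largest named rises (top row) and the 6 largest named falls (bottom row), with a bar at the mean of 2 libraries. At all 12 peaks both 500 nM libraries lie outside the range of the DMSO libraries, as the rule for naming required. The 150 nM libraries lie near DMSO.

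The largest fall was at ZNF395, on chromosome 8, a transcription factor induced by hypoxia. Its 4162 bp peak had 80.1 and 79.3 CPM in the DMSO libraries, 77.9 and 76 in those at 150 nM and 38.4 and 36.7 in those at 500 nM of H3K4me3, less than in every other library in both 500 nM libraries. The log2 fold change was -1.08 ± 0.06 (SE), adjusted p 3.19e-24 (edgeR). Of the 2 weak H3K27ac peaks at its ends, neither was called; the stronger had 3.45 and 5.01 CPM in the DMSO libraries, 5.52 and 5.84 in those at 150 nM and 3.01 and 2.93 in those at 500 nM.

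ZNF589, a KRAB protein described in blood stem cells, fell at its start (chr3:48240763-48243696). Its H3K4me3 was 90.3 and 88.1 CPM in the DMSO libraries, 89.1 and 85.3 in those at 150 nM and 62.7 and 60.8 in those at 500 nM, with no overlap between 500 nM and the other groups, and the log2 fold change was -0.53 ± 0.05 (SE) (adjusted p 6.36e-14, edgeR). ZNF483 (chr9:111524922-111526249) had 28.3 and 27.2 CPM in the DMSO libraries, 26.4 and 30.0 in those at 150 nM and 22 and 20.4 in those at 500 nM, a log2 fold change of -0.38 ± 0.09 (SE) (adjusted p 3.17e-04).

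The remaining named falls were between -0.28 and -0.19 on the log2 scale. As the rule for naming required, both 500 nM libraries stood below both DMSO libraries at each of these falls. They were ZNF692, named for binding an AICAR response element (-0.28), ZNF70 (-0.27), ZNF25 (-0.24), ZNF532 (-0.21), ZNF18 (-0.20), ZNF830 (-0.20), ZNF318 (-0.20), ZNF592 (-0.19) and ZNF292 (-0.19). ZNF318 controls the splicing that lets mature B cells make IgD. Its start had 102 and 106 CPM in the DMSO libraries, 106 and 98.7 in those at 150 nM and 92.8 and 87.9 in those at 500 nM of H3K4me3, with both 500 nM libraries lowest. ZNF70 shares its peak with VPREB3, a gene of the B-cell receptor precursor, and ZNF18 shares its peak with MAP2K4. DESeq2 did not call ZNF25, ZNF532 or ZNF18, and the calls of ZNF532 and ZNF18 were also lost without replicate 2 of DMSO, as was that of ZNF532 without replicate 2 of 500 nM.

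Among 20 members chosen for a known role, 18 had a tested main H3K4me3 peak (the strongest of a gene), of which 1 rose (ZNF598) and 7 fell, by 0.11 to 0.20 on the log2 scale; 39.4% of all tested peaks were called. Besides ZNF318, ZNF592 and ZNF292, the falls were at ZNF217, an oncogene that works with CtBP corepressors (-0.15), ZNF143, a promoter factor of chromatin loops (-0.13), ZNF445, which keeps imprints (-0.18), and ZNF638, a silencer of unintegrated retroviral DNA (-0.11). The calls of ZNF217 and ZNF143 were lost with loess offsets (adjusted p 0.0957 and 0.171), and those of ZNF445 and ZNF638 with scaling by total count in peaks (0.0983 and 0.195). DESeq2 called none of these 4, and each also lost its edgeR call when 1 library was left out: replicate 1 of DMSO for ZNF217, that library or replicate 2 of 500 nM for ZNF143 and ZNF445, and any library but replicate 1 of DMSO for ZNF638. ZNF746, a repressor regulated by parkin, was not called at 0.11 ± 0.05 (SE), yet passed as higher with loess offsets (0.16, adjusted p 0.00458), with total counts, with a mean-count filter of 50, with the replicate block and without replicate 2 of DMSO or replicate 1 of 500 nM. ZNF644, a partner of the H3K9 methyltransferases G9a and GLP, stayed at -0.03 ± 0.04 (SE), and ZNF687, a partner of ZNF592 and ZNF532, at -0.04 ± 0.04 (SE); neither was called. The other 6 with values (ZNF148, ZNF281, ZNF202, ZNF263, ZNF207 and ZNF367) and ZNF384 had log2 fold changes from -0.09 to 0.01 and were not called.

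Among genes of the KRAB silencing machinery the called changes at 500 nM against DMSO were small. Of 16 cofactor genes, 15 had a tested H3K4me3 peak and 4 of them passed the test, no larger a share than the 39.4% of all tested peaks: MORC2, of the HUSH pathway, rose (log2 fold change 0.13), and HDAC1 (-0.22), the HP1 gene CBX1 (-0.15) and PPHLN1 (-0.14) fell. TRIM28 had H3K4me3 of 134 and 136 CPM in DMSO and 128 and 128 CPM at 500 nM and was not called, and SETDB1, with a log2 fold change of -0.07, was not either. No main H3K27ac peak of the list was called at 500 nM by edgeR, and the smallest unadjusted p against DMSO was 0.0565, at CBX1 (-0.37).

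Against 150 nM, the 500 nM libraries gave a similar set of values, as both comparisons share the 500 nM libraries. Of the 183 member peaks 49 were called, 18 higher and 31 lower, with 39.2% of all tested peaks called (20.5% higher and 18.6% lower) and 38.8% of gene-end peaks (19.9% higher and 19% lower). Peaks called in both comparisons numbered 13 rises and 25 falls. On the log2 scale ZNF853 differed by 2.14 ± 0.24 (SE), ZNF365 by 1.76 ± 0.16 (SE), ZNF629 by 1.52 ± 0.23 (SE) and ZNF438 by 0.91 ± 0.15 (SE). The falls were led by ZNF395 (-1.03 ± 0.06 (SE)), ZNF589 (-0.50 ± 0.05 (SE)) and ZNF483 (-0.40 ± 0.09 (SE)). DESeq2 called 8 higher and 9 lower.

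At 150 nM against DMSO no member peak of either mark was called in edgeR or DESeq2, where 0% of all H3K4me3 peaks and 0.00185% of all H3K27ac peaks were called in edgeR. Both 150 nM libraries stood above both DMSO libraries at 17 H3K4me3 member peaks (9.29%) and below them at 35 (19.1%), beside 17.2% and 16.8% of all tested peaks and 15.4% and 18.1% of gene-end peaks. At an unadjusted p under 0.05, the counts were 7 of 183 H3K4me3 member peaks (3.83%, beside 4.66% of all tested peaks) and 7 of 203 in H3K27ac (3.45%, beside 3.94%). Among main peaks, the smallest unadjusted p downward for H3K4me3 were at ZNF641, with a log2 fold change of -0.16, and ZNF165, a testis gene, at -0.13. Upward they were at ZNF746 (0.09) and ZNF652 (0.07). For H3K27ac they were at ZNF732 (0.84) and ZNF367 (0.29) upward, and at ZNF292 (-0.21) and the wide domain of ZNF608 (-0.15) downward. Without replicate 1 at 150 nM, ZNF608 was at -0.26. The members' median log2 fold change was -0.01 in H3K4me3 and 0.05 in H3K27ac.

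H3K27ac at the members was called at a single peak at 500 nM. Of the 203 tested member peaks, 1 passed, as higher. Of all 54037 tested peaks 0.923% passed (0.692% higher), and of the gene-end peaks 0.841% (0.612% higher). An unadjusted p under 0.05 was found at 23 member peaks (11.3%), beside 11.5% of all tested peaks and 11.7% of gene-end peaks. The one called was ZNF394, a KRAB and SCAN protein that dampens MAPK signalling, at chr7:99499424-99500743. Its H3K27ac was 36.3 and 37.5 CPM in the DMSO libraries, 38 and 43.2 in those at 150 nM and 53.1 and 50.6 in those at 500 nM, with both 500 nM libraries highest and a log2 fold change of 0.49 ± 0.13 (SE) (adjusted p 0.0463, edgeR). H3K4me3 at the same start was 172 and 178 CPM in the DMSO libraries, 177 and 182 in those at 150 nM and 171 and 177 in those at 500 nM and was not called. The H3K27ac call of ZNF394 was lost with total counts, loess offsets and DESeq2 (adjusted p 0.0531, 0.0514 and 0.444) and without any 1 of the 4 DMSO and 500 nM libraries.

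ZNF598 was the single H3K27ac call among members at 500 nM against 150 nM, where 1.27% of all tested peaks were called. Its H3K27ac was 40.0 and 47.1 CPM in the DMSO libraries, 34.4 and 49.2 in those at 150 nM and 61.8 and 61 in those at 500 nM. The log2 fold change was 0.55 ± 0.13 (SE) against 150 nM (adjusted p 0.0159) and 0.49 ± 0.13 (SE) against DMSO (adjusted p 0.0547, edgeR); the second missed the threshold. The 150 nM libraries were far apart, and without replicate 1 at 150 nM the difference against 150 nM was 0.31 (adjusted p 0.135). That call was also lost without replicate 1 or 2 of 500 nM (adjusted p 0.188 and 0.172), under a mean-count filter of 50 (0.0534), with the 4 libraries alone (0.0905) and with DESeq2 (0.396). The difference against DMSO passed with no filter, with the replicate block, with the 4 libraries alone, without either 150 nM library and with the contig split as a term, the last at 0.70 (edgeR, adjusted p 1.86e-05 to 0.0286 over these).

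The median H3K27ac values of the members were slightly above 0. The members' median log2 fold change against DMSO was 0.09, beside 0.06 over gene-end peaks and 0.00 over all tested peaks, and 0.024 above matched peaks, no larger than the spread between replicates (SD 0.024). By library, the matched deviation was -0.021 and 0.0071 in the DMSO libraries, -0.014 and 0.017 in those at 150 nM and -0.011 and 0.032 in those at 500 nM, again overlapping. Both 500 nM libraries stood above both DMSO libraries at 68 peaks (33.5%) and below them at 28 (13.8%), beside 30.3% and 16.6% of gene-end peaks and 22.4% and 22.2% of all tested peaks. With the contig split as a term 6 members were called higher and none lower, with 2.36% of all tested peaks called. The split set apart replicate 2 of DMSO and replicate 2 at 150 nM but no 500 nM library. The comparison with DMSO in that fit, given also for ZNF598 above, therefore rested more on replicate 1 of DMSO.

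H3K4me3 and H3K27ac were compared at 165 members whose main H3K4me3 peak overlapped an H3K27ac peak. Across these genes, which share libraries and are not replicates, the levels per kb went together (Spearman's rho 0.56) and the log2 fold changes hardly did (rho 0.16). For the log2 fold changes, rho was 0.50 within the 34 called H3K4me3 falls, -0.11 within the 11 called rises and 0.025 within the 120 not called. The difference between these sets was not tested. Of the 11 members with a called H3K4me3 rise, 9 had H3K27ac above 0 on the log2 scale, and of the 34 with a called fall, 19 did, beside 113 of all 165. Picked from the 34 falls, ZNF395, ZNF589, ZNF692, ZNF25 and ZNF318 were below 0 in both marks, at -0.52, -0.16, -0.25, -0.32 and -0.32 in H3K27ac. None of these H3K27ac values was called in the main fit. ZNF318 passed with the 4 libraries of the contrast alone (-0.32, edgeR adjusted p 0.0296). ZNF70, another named fall of H3K4me3, was at 0.10 in H3K27ac. ZNF140, ZNF84 and ZNF251, picked after their values were seen, had called falls of H3K4me3 of 0.15 with H3K27ac log2 fold changes of 0.35, 0.27 and 0.30, none called; the H3K4me3 calls of all 3 were lost with loess offsets, with DESeq2 and without replicate 2 of DMSO.

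**Figure D4:**
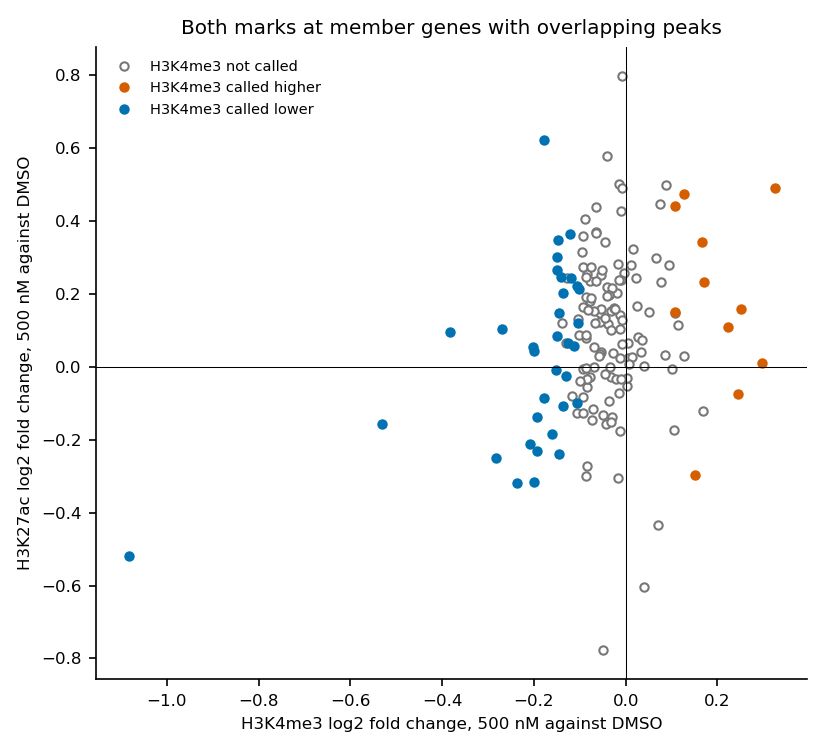
H3K27ac log2 fold change (vertical axis) against H3K4me3 log2 fold change (horizontal axis), 500 nM against DMSO, for the 165 members with overlapping peaks, coloured by the H3K4me3 call. The 11 called rises and 34 called falls of H3K4me3 separate along the horizontal axis, and both spread above and below 0 in H3K27ac.

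The genes lie partly in clusters, as zinc finger genes multiplied by local duplication: 82 of the 227 stood in 15 runs of at least 3 members with gaps of at most 200 kb. Beside 39.4% of all tested and 39.9% of gene-end peaks, H3K4me3 at 500 nM was called at 15 of 70 peaks in the runs (8 higher and 7 lower) and at 37 of 113 outside them (10 higher and 27 lower). In H3K27ac the median log2 fold change minus that of matched peaks was 0.10 over 78 peaks in the runs and -0.00 over 125 outside. By library, the median deviation of H3K27ac in the runs from matched peaks was -0.061 and -0.018 in the DMSO libraries, -0.0098 and 0.020 in those at 150 nM and -0.011 and 0.049 in those at 500 nM, so that the groups were apart by little and 150 nM overlapped with 500 nM. No difference between clustered and single members was tested.

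The run of 7 genes at the end of the long arm of chromosome 12 (ZNF605, ZNF26, ZNF84, ZNF140, ZNF891, ZNF10 and ZNF268; chr12:132918306-133214832) had values of 1 sign in each mark and was picked from the 15 runs after its values were seen. All 6 of its H3K4me3 peaks were below 0, from -0.15 to -0.06 on the log2 scale, with ZNF84 and ZNF140 called, and all 6 of its H3K27ac peaks were above 0, from 0.06 to 0.41, with none called. Of all gene-end peaks 43.7% were above 0 in H3K4me3 and 59.5% in H3K27ac, shares that were not matched for abundance. Other gene-end peaks had H3K4me3 medians below 0 in each of bins 4 to 10 of abundance, counted from the lowest (-0.0026 to -0.068). Their H3K27ac medians were above 0 in every bin (0.0061 to 0.11). Both calls were lost with total counts, loess offsets, DESeq2 and without replicate 2 of DMSO or replicate 1 of 500 nM, and that of ZNF84 also with RLE size factors and without replicate 2 of 500 nM or replicate 1 of 150 nM. Summed over the run, H3K4me3 was 387 and 398 CPM in the DMSO libraries, 391 and 393 in those at 150 nM and 363 and 367 in those at 500 nM. H3K27ac summed to 105 and 113 CPM in the DMSO libraries, 109 and 133 in those at 150 nM and 126 and 133 in those at 500 nM. In both marks the 500 nM and DMSO libraries did not overlap, while replicate 2 at 150 nM reached the 500 nM level of H3K27ac. The pattern was not particular to this run. The chromosome 7 run from ZNF789 to ZNF655 had the same signs, at 3 of 3 peaks in each mark. Sums lower in H3K4me3 and higher in H3K27ac at 500 nM, without overlap with DMSO, were also found in other runs. These were ZNF514 to ZNF892, ZNF595 to ZNF721, ZNF722 to ZNF117, ZNF789 to ZNF655 and ZNF205 to ZNF597. The log2 ratios of their sums were -0.097 to -0.052 in H3K4me3 and 0.126 to 0.276 in H3K27ac. Of single gene-end peaks, 38.2% were lower without overlap in H3K4me3 and 30.3% were higher without overlap in H3K27ac. The H3K4me3 ratios of these runs were of the size of the bin medians given above. Whether any run differed from matched peaks was not tested.

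On chromosome 7, 3 runs also had every H3K27ac peak above 0. From ZNF853 to ZNF12 the 3 peaks summed to 38.9 and 49.7 CPM in DMSO and to 55.6 and 50.7 CPM at 500 nM. From ZNF722 to ZNF117 the 5 peaks summed to 137 and 148 CPM in DMSO and to 174 and 168 CPM at 500 nM. From ZNF789 to ZNF655 the 3 peaks, ZNF394 among them, summed to 159.5 and 159.2 CPM in DMSO and to 188 and 198 CPM at 500 nM. The run from ZNF786 to ZNF746, on the same chromosome, was also picked after its values were seen. Of its H3K4me3 peaks, 3 of 8 were called higher (ZNF282, ZNF783 and ZNF777), beside 20.7% of all tested peaks. DESeq2 called ZNF783 but not ZNF282 or ZNF777. The run had a median H3K27ac log2 fold change of 0.01. Its H3K4me3 summed to 783 and 821 CPM in DMSO and to 819 and 849.8 CPM at 500 nM, groups that overlapped.

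**Figure D5:**
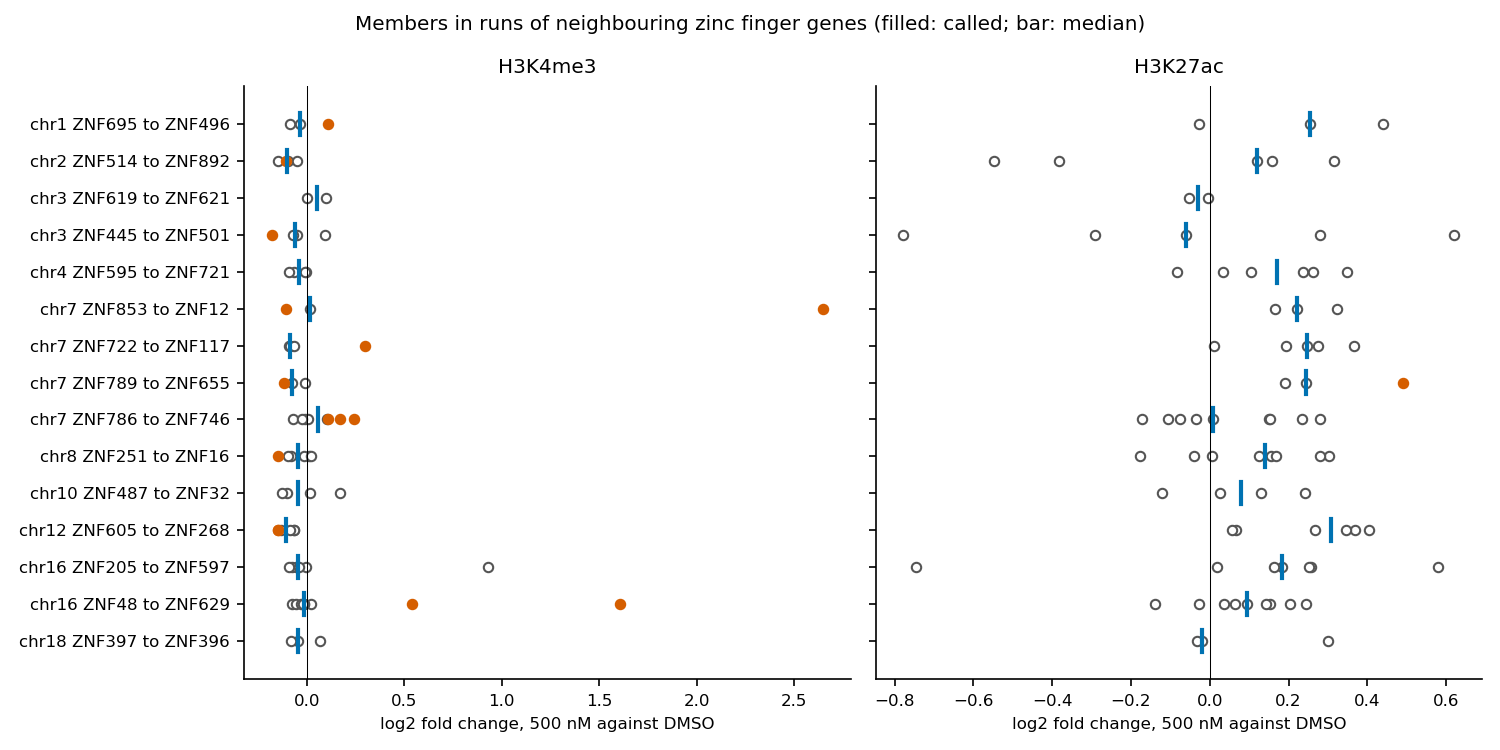
Log2 fold change at 500 nM against DMSO (horizontal axes, with different ranges) of each member peak in the 15 runs of neighbouring genes (rows), for H3K4me3 (left) and H3K27ac (right). Filled points passed an adjusted p of 0.05, and bars are medians; in H3K27ac all points of the chromosome 12 run and of 3 chromosome 7 runs lie above 0.

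The 171 tested H3K4me3 peaks of chromosome 19 zinc finger genes, the larger set of such genes with 241 RefSeq members, had 7 rises and 35 falls at 500 nM against DMSO (4.09% and 20.5%), beside 16.3% and 19.7% of gene-end peaks of matched abundance and 20.7% and 18.7% of all tested peaks. Their median log2 fold change minus that of matched peaks was -0.05, beside -0.01 for the members outside chromosome 19. In H3K27ac the medians minus matched peaks were 0.09 on chromosome 19 and 0.02 elsewhere. The difference between the chromosome 19 genes and the others was not tested.

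By promoter, members with a called H3K4me3 rise had a median of 39 CpGs in 12 windows, those with a fall 28.5 in 28 windows and those without a call 22.5 in 104. The ETS letters were in 4 of the 12, 7 of the 28 (25%) and 50 of the 104 (48.1%), and the GGGCGG letters in 9, 19 and 65. CCAAT was in 2 of the 12, 10 of the 28 and 54 of the 104. These counts were not tested.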

How the data were processed

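The authors' deposited tables hold whole-number read counts per consensus peak, 1 table per mark, made with featureCounts 2.0.1 (options -O, -p, -s 0 and a fractional overlap of 0.2), per the file headers; the labels call the reads single-end. Per the submitters' processing notes, GRCh38, Trim Galore 0.6.7, BWA 0.7.17-r1188, Picard 2.27.4, MACS2 2.2.7.1, deepTools 3.5.1 and edgeR 3.42.4 were used. How the consensus peaks were made is not given in the sources used here. As read counts have no molecular identifiers, duplicates affect them.

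From the counts, peaks passing filterByExpr were tested over all 6 libraries of a mark with edgeR 4.0.16 (TMM factors, quasi-likelihood F test, Benjamini-Hochberg adjustment over all tested peaks, threshold 0.05), in R 4.3.3 with limma 3.58.1. CPM values are per library; log2 CPM used a prior count of 2. SE is the log2 fold change divided by the square root of F. Peak starts were raised by 1 to count from 1. Gene ends and promoters came from RefSeq tables of GRCh38.p14; matched peaks were other gene-end peaks in the same of 10 abundance bins. Tables and figures used Python 3.11.15, pandas 2.3.3, numpy 2.4.6 and matplotlib 3.10.9. In 3 simulations with 200 peaks changed by a log2 of 1, edgeR recovered 80.5% to 83% for H3K4me3 and 43.5% to 46% for H3K27ac at 500 nM against DMSO, over 20080 to 20097 and 51803 to 51887 peaks. The changed peaks were drawn at random and all others left unchanged, whereas 39.4% of the real H3K4me3 peaks were called.

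Named genes were the 12 largest rises and falls among called H3K4me3 peaks whose libraries did not overlap at 500 nM against DMSO (6 each against 150 nM), the peaks highest per kb, all called H3K27ac peaks and a list of known roles. At 150 nM against DMSO they were the main peaks with the smallest unadjusted p in each direction, 2 upward and 2 downward per mark. The members and lists were chosen with earlier results of these data known. Alternatives were RLE, total-count and loess scaling, other filters and thresholds, a replicate block, each library left out, 4 libraries alone, the 150 nM libraries summed, the contig split as a term, other distances and bins, and DESeq2 1.42.0. Input, H3K9me2 and H3K9me3 libraries (6 each) and protein domains were not analysed here.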

Additional observations from a re-analysis of the deposited data

How the results depend on the processing

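Of 1160 alternative values of 78 named peak results, 1061 kept their direction and side of the threshold, 63 lost their call, 16 gained one and 20 changed sign, all of the last without a call in either fit. For H3K4me3 at 500 nM against DMSO the log2 fold changes that turned positive were ZNF148 (0.020), ZNF202 (0.020) and ZNF644 (0.0025) with total counts, ZNF148 (0.025), ZNF263 (0.015), ZNF207 (0.015), ZNF644 (0.019), ZNF687 (0.026) and ZNF367 (0.029) with loess offsets, and ZNF148 (0.0089) and ZNF202 (0.0085) with a mean count of at least 50. With 1 library left out H3K4me3 ran from -0.040 to 0.0044 at ZNF148, -0.021 to 0.022 at ZNF281, -0.040 to 0.0099 at ZNF202 and -0.098 to 0.018 at ZNF367, and H3K27ac from -0.12 to 0.20 at ZNF281, -0.46 to 0.075 at ZNF746 and -0.012 to 0.18 at ZNF384. For H3K4me3 at 500 nM against DMSO, 52 member peaks were called, and 19 with DESeq2, 31 at an adjusted p of 0.01, 4 at an absolute log2 fold change of 1 or more, 27 among peaks near no other gene and 34 (without replicate 2 of DMSO) to 49 with 1 library left out. Against 150 nM the 49 became 17, 32, 4 and 26 in the same order. For H3K27ac against DMSO, the single call became 0 with total counts, loess offsets, DESeq2, an adjusted p of 0.01 or an absolute log2 fold change of 1 or more, 2 with no filter or ends within 2000 bp, 4 in the 4 libraries alone, 6 with the contig term and 0 to 4 with 1 library left out. Against 150 nM it became 0 with a mean count of at least 50, 4 libraries alone, DESeq2, an adjusted p of 0.01, an absolute log2 fold change of 1 or more or peaks near no other gene, and 0 to 2 with 1 library left out. At 150 nM against DMSO, H3K27ac had 0 to 1 calls with 1 library left out (1 without replicate 1 at 150 nM). The causes were not tested, except that fewer peaks or libraries entered where some were left out.

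The members' median minus matched peaks ran from -0.020 to 0.052 over all comparisons and alternatives. For H3K4me3 at 500 nM against DMSO it was -0.011, and -0.0025 near no other gene, -0.020 with bins of abundance by length and -0.019 (without replicate 2 at 500 nM) to -0.0028 (without replicate 1) with 1 library left out. Against 150 nM it was 0.0052, and -0.0095 with bins by length and -0.0079 to 0.014 with 1 library left out (500 nM replicates 2 and 1). At 150 nM against DMSO it was -0.0059, and 0.0077 near no other gene and -0.011 to 0.0018 with 1 library left out. For H3K27ac at 500 nM against 150 nM it was 0.029, and -0.0030 (without replicate 1 at 150 nM) to 0.041 with 1 library left out. With gaps of at most 500 kb the H3K4me3 median was -0.00062 in runs (-0.013 with 200 kb) and -0.021 outside (-0.0067).

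Whether replicate numbers pair the libraries is not known. Across peaks, the log2 CPM of replicate 2 minus replicate 1 was correlated between groups. The values were 0.0047 to 0.0489 for H3K4me3 and 0.0026 to 0.133 for H3K27ac, the last between DMSO and 150 nM. Low correlations of such noisy differences cannot exclude a pairing. With the replicate block, 55 H3K4me3 member peaks, including the 52, and 3 H3K27ac member peaks were called at 500 nM against DMSO. Of all tested peaks, the block called 40.6% in H3K4me3 (39.4% without it) and 2.13% in H3K27ac (0.923% without it). At this depth, 43.5% to 46% of simulated H3K27ac changes of 1 on the log2 scale were called at 500 nM against DMSO, and smaller ones were not simulated. The changed peaks were drawn at random from all tested peaks, so this share is not that of member peaks.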
